A study of Mus musculus with 6 samples.

Results

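The transporters described here belong to 5 families of the solute carrier superfamily: Slc2 (facilitative sugar carriers), Slc5 (sodium-coupled carriers), Slc16 (proton-coupled and related monocarboxylate carriers), Slc30 (zinc exporters) and Slc39 (zinc importers). They were taken by name alone, as every gene on the array whose symbol is Slc2a, Slc5a, Slc16a, Slc30a or Slc39a followed by a number. No measured value picked single genes among them, but the set was chosen with earlier results of these data known. This gave 60 genes on 96 of the 41174 non-control probes of the array. The kidneys came from wild-type mice and from mice with Gpr97 deficiency, each after sham surgery or with renal ischaemia/reperfusion injury, a model that stops the kidney's blood flow and lets it return. The groups were 2 wild-type sham arrays, 2 wild-type injured arrays, 1 Gpr97-deficient sham array and 1 Gpr97-deficient injured array. Gpr97 is the older name of Adgrg3, an adhesion G protein-coupled receptor. All 6 samples are labelled kidney and male. Neither the type of Gpr97 allele nor the strain, age, ischaemia time or collection time is given in the sources used here. Whether arrays of 1 group came from separate animals is not in the labels, so every p-value measures only the spread between these samples, part of which may be technical.

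In the healthy kidney these carriers divide the handling of sugars, lactate and zinc between both faces of the tubule cell. In the proximal tubule, sodium-coupled carriers of the Slc5 family pull glucose, lactate and inositol out of the filtrate across the apical membrane, and Slc2 carriers let glucose leave on the blood side. Slc16a1 (MCT1) and Slc16a3 (MCT4) move lactate together with a proton, and Slc16a3 is known for lactate export from cells that rely on glycolysis and as a target of the hypoxia-inducible factors. Slc39 proteins bring zinc into the cytosol, Slc30 proteins take it out, and metallothioneins hold it there. Slc30a1 and the metallothionein genes are textbook targets of the metal-responsive factor Mtf1.

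Promoter sequences were matched by symbol in a RefSeq table of the build GRCm38.p6, which held 53 start-site windows for 46 of the 60 genes. Each window runs from 250 bases before to 50 bases after a start. It was searched on both strands for the hypoxia core ACGTG and for the metal response element, spelled TGCACNC or TGCGCNC. The hypoxia core was found in 16 of the 53 transporter windows (30.2%) and in 19.6% of all 32851 windows in the table. The metal response element was found in 20 of the 53 (37.7%) and in 25.7% of all windows. A match describes the letters only and is not evidence of binding. The lactate carriers Slc16a3 and Slc16a1, the glucose carrier Slc2a1 and the zinc exporter Slc30a1 are shown as 120-base stretches. All are read 5′ to 3′ on the plus strand of GRCm38.p6 and are examples picked from the genes with a match. The hypoxia core was also found in Slc39a8 and Slc16a12, which were lower on every injured array. For Slc16a12 the gap was narrow and was not kept under every processing. Slc16a6, which was higher on every injured array, was not among the genes with a match. Whether a match goes with the change after injury was not tested. Capitals mark the hypoxia core in Slc16a3, Slc16a1 and Slc2a1 and the metal response element, read on the opposite strand, in Slc30a1. Slc16a3 holds the core at 2 places, and the capitals in Slc16a1 form a palindrome that holds it on both strands.
Slc16a3, chr11:120948947-120949066, -120 to -1 from the start: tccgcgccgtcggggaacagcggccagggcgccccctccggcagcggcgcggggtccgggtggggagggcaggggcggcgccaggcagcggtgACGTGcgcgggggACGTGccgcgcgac
Slc16a1, chr3:104638424-104638543, -240 to -121 from the start: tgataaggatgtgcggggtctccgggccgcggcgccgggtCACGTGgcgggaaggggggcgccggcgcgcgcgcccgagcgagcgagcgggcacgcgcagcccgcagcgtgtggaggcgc
Slc2a1, chr4:119108625-119108744, -120 to -1 from the start: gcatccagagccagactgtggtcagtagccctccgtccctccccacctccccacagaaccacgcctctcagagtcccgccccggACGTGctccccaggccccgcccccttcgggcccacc
Slc30a1, chr1:191906661-191906780, -120 to -1 from the start: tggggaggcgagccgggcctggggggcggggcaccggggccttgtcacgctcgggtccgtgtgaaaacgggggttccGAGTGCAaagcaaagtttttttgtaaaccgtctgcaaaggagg

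Each level below is the log2 signal of a gene's brightest probe relative to the 75th percentile of its array, so 1 unit is a 2-fold difference, and levels of different genes are not compared. Of all probes, 62.9% to 71.0% were well above background on an array, and 51 to 55 of the 60 transporter genes were. Adgrg3, the targeted gene, read 0.24 and 0.05 on the wild-type sham arrays, 1.10 and 1.25 on the wild-type injured arrays, -5.34 in the Gpr97-deficient sham kidney and -5.71 in the Gpr97-deficient injured kidney, where it was not well above background. Wild-type injured array 1 goes against its male label: Xist read 4.10 there and -5.38 or lower on the other 5 arrays, and 0 of 4 Y-linked genes were above background there against 4 of 4 on each of the others. The 2 wild-type injured arrays are thus not repeats of 1 RNA sample, and the main results are also given without wild-type injured array 1. The arrays lie on 2 slides: wild-type sham 1 and wild-type injured 2 on slide 1, and the other 4 arrays, both Gpr97-deficient ones among them, on slide 2. Genotype and slide are thus partly joined, while each slide holds a wild-type sham and injured pair.

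Of the 60 genes, 54 were well above background on at least 2 of the 6 arrays and were tested, 51 of them above it on all 6. The other 6 were not tested: Slc30a10, Slc30a8, Slc39a12, Slc5a5 and Slc5a7 were above background on 0 arrays and Slc30a3 on 1. Slc30a10 is a manganese exporter despite its zinc-family name. The low signal of these probes does not show that the genes were off. One tested gene, Slc2a10 (an intracellular sugar and dehydroascorbate carrier), was above background on no sham array and met the filter through 2 injured arrays. Its injured mean was 1.17-fold above a floor set for the sham arrays. That mean includes wild-type injured 2, at -5.58 not above background itself, so the value is not a strict bound. Within the wild type no such fold was found. Among the 20 genes with several probes that were above background on all 6 arrays, 0 had probes differing by over 1 log2 unit in the change with injury.

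The first question was which transporters differed between injured and sham kidneys. The lactate carriers Slc16a1 and Slc16a3 and the ketone body carrier Slc16a6 were higher on every injured array, while the sodium-coupled carriers Slc5a8, Slc5a11 and Slc5a12, the glucose carrier Slc2a12, Slc16a9 and the zinc importer Slc39a8 were lower on every injured array. Those 9 genes are the ones whose 3 injured and 3 sham arrays did not overlap and whose surgery term was at least 1 log2 unit. The surgery term is the injured minus sham difference over both genotypes, in a limma model that also has a genotype term. No gene of any kind passed limma's Benjamini-Hochberg adjusted p of 0.05: the count was 0 of 19612 genes (0%) for this term and 0 (0%) for injury within the wild type, the genotype term and the interaction. At an unadjusted limma p under 0.05 the surgery term took 6 transporters upward, where 5.77% of all genes were taken (among them Slc2a10, which met the background filter through 2 injured arrays alone), and 12 downward, where 6.52% were. Within the wild type alone it took 3 upward (Slc16a1, Slc16a3 and Slc16a6), against 3.34% of all genes, and 4 downward (Slc2a12, Slc39a8, Slc5a8 and Slc5a9), against 3.03%.

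Without a threshold on size, 7 of the 54 tested transporters had all 3 injured arrays above all 3 sham arrays, against 10.1% of all genes tested. In the other direction 11 of the 54 had all 3 injured arrays below, against 12.5% of all genes tested. With the size of at least 1 log2 unit added, 3 lay above, against 2.59% of all genes, and 6 lay below, against 2.16%. Without wild-type injured array 1 the counts were 11 above (15.1% of all genes) and 18 below (20.3%), and all 7 and all 11 of the first counts were among them. Over the 54 genes the median surgery term was -0.12, against -0.04 over all genes, with 24 higher and 30 lower, where 45.0% and 55.0% of all genes were. A 2-sided exact permutation test of 3 against 3 arrays cannot give a p below 0.1.

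The families did not share 1 direction. Of all 19612 genes tested, 55.0% had a negative surgery term and 45.0% a positive one. Among those genes 726 were lower and 716 higher by at least 1 log2 unit. The median surgery term was lowest for Slc5 at -0.89, with 7 of 9 genes lower and 3 of them by at least 1 log2 unit; it was -1.11 without wild-type injured array 1. Slc2 had a median of -0.27 over 11 genes, which was -0.69 without Slc2a3, Slc2a6 and Slc2a10, the dim genes not above background on every array. The medians were -0.21 over 14 genes for Slc16 and -0.08 over 7 genes for Slc30. The Slc16 median turned to 0.06 with normexp background correction, and the Slc30 median to 0.09 without wild-type injured array 1. Slc39 was the family with a median above 0, at 0.19, with 9 of 13 genes higher, and its median was 0.04 with 8 of 13 higher when that array was left out and 0.02 without wild-type sham array 2. Slc16 held the 3 highest terms of all transporters and also 3 genes lower by at least 1 log2 unit.

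**Figure D1:**
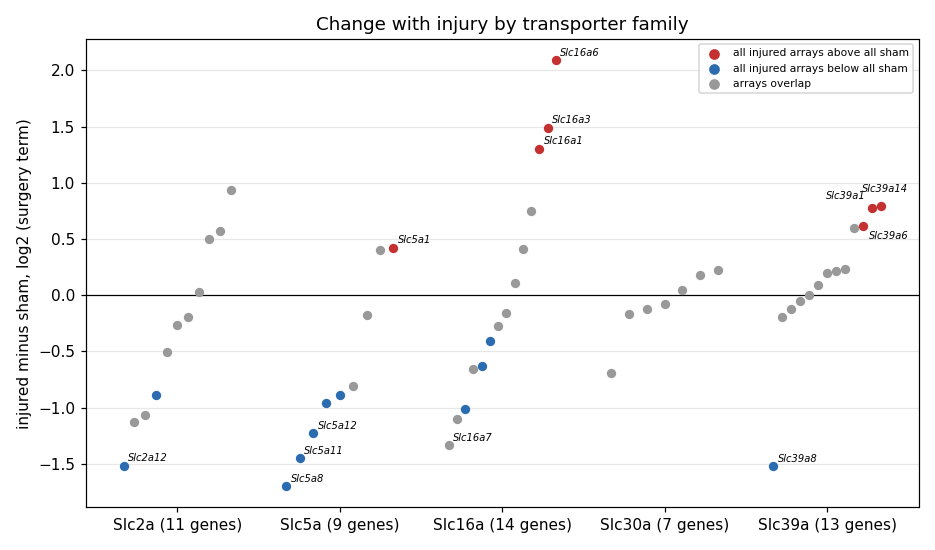
Surgery term (injured minus sham, log2, vertical axis) of each of the 54 tested transporters, grouped by family and ordered by size within it; red and blue mark genes whose injured arrays all lie above or below the sham arrays, and grey marks genes whose arrays overlap. The 3 highest points are Slc16a6, Slc16a3 and Slc16a1, and 7 of the 9 Slc5 genes lie below 0.

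Monocarboxylate carriers had the highest surgery terms. Slc16a6 (MCT7), known for ketone body export from liver cells, read 1.26, 1.33 and 1.69 on wild-type sham 1, wild-type sham 2 and Gpr97-deficient sham, and 3.39, 4.10 and 3.06 on wild-type injured 1, wild-type injured 2 and Gpr97-deficient injured. The lowest injured array was above the highest sham array by more than the whole range of the sham arrays. Its surgery term was 2.09 (SE 0.32, limma adjusted p = 0.257) and 2.19 without wild-type injured array 1. A second probe, also above background on all 6 arrays, gave the same term of 2.09. Slc16a6 was the 1 transporter at least 2-fold higher in all 3 within-slide pairs, a property of 1.19% of all genes, with changes of 2.84 and 2.06 in the wild-type pairs of slide 1 and slide 2 and 1.37 in the Gpr97-deficient pair. The array's probe for it lies at chr11:109314058-109314117 in mm9.

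Slc16a3, the lactate exporter of glycolytic cells, read -1.52, -2.64 and -1.01 on the sham arrays and 0.04, -0.66 and -0.08 on the injured arrays, in the same order. The 2 groups were separate, but the gap between Gpr97-deficient sham and wild-type injured 2 was small beside the range of the sham arrays. Its surgery term was 1.49 (SE 0.41, limma adjusted p = 0.328) and 1.21 without wild-type injured array 1. Slc16a1, which carries lactate and pyruvate in either direction, read 1.37, 0.73 and 1.68 on the sham arrays and 2.03, 3.31 and 2.34 on the injured arrays. Wild-type injured 2 stood highest and wild-type injured 1 lowest of the 3. The surgery term was 1.30 (SE 0.44, limma adjusted p = 0.372) and 1.57 without wild-type injured array 1; the other 2 probes of Slc16a1, both above background throughout, gave injured minus sham terms of 1.23 and 0.95. The probes of Slc16a3 and Slc16a1 used here lie at chr11:120820023-120820082 and chr3:104460941-104461000 in mm9. Within the wild type alone, 2 arrays against 2, the changes were 2.45 (SE 0.34) for Slc16a6, 1.77 (SE 0.51) for Slc16a3 and 1.62 (SE 0.54) for Slc16a1, with limma adjusted p = 0.772, 0.772 and 0.774. Without wild-type injured array 1 they were 2.81, 1.42 and 2.26 (limma adjusted p = 0.399, 0.519 and 0.399), with 1 injured array that is assumed to vary like the other groups.

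Basigin (Bsg), the chaperone that brings Slc16a1 and Slc16a3 to the cell surface, and embigin (Emb) did not separate the groups, with surgery terms of -0.26 and -0.05. Without wild-type injured array 1 the terms were -0.48 and -0.21, and the remaining injured arrays lay below the sham arrays for both. Of the 22 glycolytic genes and pyruvate dehydrogenase kinases counted as their metabolic neighbours, 2 had all injured arrays above all sham arrays and 1 below, and the list's median surgery term was -0.01. Without wild-type injured array 1, 3 lay above and 6 below. Of all genes tested, 10.1% lay above and 12.5% below, or 15.1% and 20.3% without that array. With all 6 arrays, those above were hexokinase 2 (Hk2), with a surgery term of 2.46 (limma adjusted p = 0.262; 2.88 without that array), and the enolase gene Eno2, with 1.52 (limma adjusted p = 0.249; 1.52 without it). The 1 below was Pdk3, with a term of -0.57, or -0.61 without that array. Pdk4 and Aldoc had terms of 2.345 and -1.25 with overlapping groups. Without that array Pdk4 had 2.94 with separate groups and Aldoc -1.93 with overlapping groups. Lactate dehydrogenase A (Ldha) had a term of -0.07, or 0.04 without that array. Hk2 was above background on 5 of the 6 arrays and Eno2 on all 6. The list was chosen for these carriers with earlier results of these data known, and 0 of its genes passed the adjusted threshold.

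The other Slc16 genes went either way. Slc16a9, a carnitine and creatine carrier tied to urate handling, read 4.04, 4.47 and 4.28 on the sham arrays and 3.69, 2.77 and 3.30 on the injured arrays, with a surgery term of -1.01 (SE 0.30, limma adjusted p = 0.336) and -1.27 without wild-type injured array 1. Its probe lies at chr10:69748406-69748465 in mm9. Slc16a11 and Slc16a12 (a creatine carrier) also had all injured arrays below all sham arrays. Their terms were smaller, -0.63 and -0.41, or -0.66 and -0.32 without that array. For Slc16a12 the gap was narrow, 1.76 on the Gpr97-deficient sham array against 1.75 on wild-type injured 2. Its groups overlapped with quantile normalization and with the deposited values. Slc16a7 (MCT2, a high-affinity pyruvate and lactate carrier) had a term of -1.33 with overlapping groups: the sham arrays read 2.95, 2.56 and 3.55, and the injured arrays 2.62, 0.54 and 1.90. Wild-type injured 1 lay inside the sham range there and the other 2 injured arrays below it, and the term without wild-type injured 1 was -1.97. Slc16a4 had a like pattern, with a term of -1.10 and -1.47 without that array. Slc16a5, Slc16a8, Slc16a10, Slc16a13 and Slc16a14 overlapped between groups with terms from -0.27 to 0.75.

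Sodium-coupled carriers of monocarboxylates were lower on the injured arrays, opposite in sign to Slc16a1 and Slc16a3. Slc5a8 (SMCT1), which reclaims lactate and short-chain fatty acids from the filtrate with high affinity, read 2.66, 3.60 and 2.24 on the sham arrays and 1.66, 0.30 and 1.44 on the injured arrays. Wild-type injured 2 was lowest and the groups were separate. Its surgery term was -1.70 (SE 0.53, limma adjusted p = 0.349) and -1.96 without wild-type injured array 1. Slc5a12 (SMCT2), the low-affinity lactate carrier of the early proximal tubule, read 4.64, 4.06 and 4.48 on the sham arrays and 3.84, 2.34 and 3.32 on the injured arrays. The gap between wild-type sham 2 and wild-type injured 1 was narrow, and the term was -1.23 (SE 0.44, limma adjusted p = 0.382) with that injured array and -1.65 without it. The probes of Slc5a8 and Slc5a12 lie at chr10:88391888-88391947 and chr2:110487726-110487785 in mm9.

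Slc5a11 (SMIT2), an inositol carrier, read 4.05, 3.99 and 4.23 on the sham arrays and 3.54, 2.13 and 2.26 on the injured arrays. The sham arrays lay close together and wild-type injured 1 was nearest to them. Its term was -1.45 (SE 0.42, limma adjusted p = 0.336) and -1.93 without wild-type injured array 1, and its probe lies at chr7:130416608-130416667 in mm9. Slc5a3 (SMIT1), the inositol carrier of the medulla that answers to hypertonicity, differed from Slc5a11: it read 3.06, 2.01 and 2.36 on the sham arrays and 2.17, 2.25 and 2.48 on the injured arrays, with overlapping groups and a term of -0.18, or -0.12 without wild-type injured array 1. Of 6 genes of osmolyte and inositol handling, 0 had all injured arrays above and 1 had all below, the aldose reductase gene Akr1b3 with a term of -0.80, or 1 and 2 without wild-type injured array 1. The shares of all genes tested were 10.1% and 12.5%, or 15.1% and 20.3% without that array. The inositol oxygenase gene Miox had a term of -1.30 with overlapping groups, and -1.90 with separate groups when wild-type injured array 1 was left out.

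Among the glucose carriers of the apical membrane, Slc5a2 (SGLT2), which takes up most of the filtered glucose in the early proximal tubule, read 5.15, 5.33 and 5.21 on the sham arrays and 4.93, 3.96 and 4.14 on the injured arrays. Every injured array was below every sham array, with wild-type injured 1 again the closest. The surgery term was -0.89 (SE 0.29, limma adjusted p = 0.368) and -1.19 without that array. Slc5a1 (SGLT1), which takes up the remaining glucose in the late proximal tubule, lay the other way, with -1.04, -0.97 and -0.94 on the sham arrays and -0.20, -0.67 and -0.81 on the injured arrays. The sham arrays spanned a narrow range and the shift was small, with a term of 0.42 (SE 0.21, limma adjusted p = 0.486) and 0.25 without wild-type injured array 1. Slc5a9 (SGLT4), a mannose and fructose carrier, had all injured arrays below all sham arrays with a term of -0.96 (SE 0.22, limma adjusted p = 0.28) and -1.11 without that array. Slc5a10 (SGLT5), a fructose and mannose carrier of the proximal tubule, did not separate the groups: it read 6.72, 5.85 and 5.88 on the sham arrays and 6.57, 6.81 and 6.27 on the injured arrays, with a term of 0.40, or 0.47 without that array. Slc5a6, the sodium-dependent multivitamin carrier, had a term of -0.80 and overlapping groups, and -1.02 without that array.

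Of the facilitative carriers, Slc2a2 (GLUT2), the partner of Slc5a2 in the early proximal tubule, read 3.98, 3.67 and 3.33 on the sham arrays and 3.29, 3.48 and 3.41 on the injured arrays, with overlapping groups and a term of -0.27 (SE 0.20), or -0.17 without wild-type injured array 1. Slc2a1 (GLUT1), the basal glucose carrier and a hypoxia-inducible gene, read 3.13, 2.58 and 3.26 on the sham arrays and 3.24, 3.93 and 3.50 on the injured arrays. Of the injured arrays, wild-type injured 1 lay inside the sham range, and the term was 0.57 (SE 0.28, limma adjusted p = 0.496) with it and 0.72, with separate groups, without it. Slc2a12 (GLUT12) was the 1 Slc2 gene in the set of 9: it read 0.03, -0.17 and -0.04 on the sham arrays and -0.95, -2.24 and -1.54 on the injured arrays. The sham arrays lay close together and the injured arrays were spread more widely. Its term was -1.52 (SE 0.36, limma adjusted p = 0.296) and -1.88 without wild-type injured array 1, and its probe lies at chr10:22423536-22423595 in mm9. Slc2a13 (the proton-coupled inositol carrier HMIT) was also lower on every injured array, with a term of -0.88 and of -1.08 without that array. Its groups overlapped with normexp background correction.

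Slc2a4 and Slc2a5 showed large terms that rested on the other 2 injured arrays. Slc2a4 (GLUT4), the insulin-responsive carrier of muscle and fat, read 3.07, 2.93 and 3.66 on the sham arrays and 3.06, 0.90 and 2.32 on the injured arrays. Slc2a5 (GLUT5), the apical fructose carrier of the late proximal tubule, read 4.19, 4.57 and 4.13 on the sham arrays and 4.31, 2.22 and 3.17 on the injured arrays. In both genes wild-type injured 1 lay within the sham range and wild-type injured 2 lowest. The terms were -1.13 and -1.07, and -1.77 and -1.65 without wild-type injured array 1. Slc2a9 (GLUT9), the urate carrier, read -1.67, -1.80 and -1.64 on the sham arrays and -1.72, -2.08 and -1.89 on the injured arrays, with a term of -0.19, or -0.30 with separate groups without wild-type injured array 1. With another background correction (normexp) it was 0.20, as was the median of all genes. Of the remaining Slc2 genes, Slc2a3, Slc2a6 and Slc2a8 overlapped between groups with terms from -0.51 to 0.50.

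Of 8 genes of gluconeogenesis and fructose use that had a probe, 1 had all injured arrays below all sham arrays, fructose bisphosphatase Fbp1 with a term of -0.81 (-1.08 without wild-type injured array 1), and 0 lay above. The list's median was -0.24 and 7 of the 8 terms were negative; without wild-type injured array 1, 4 of the 8 lay below. The glucose-6-phosphatase gene G6pc had the lowest term, -1.64 (SE 0.95, limma adjusted p = 0.546), with overlapping groups, and read 2.31 and 3.68 on wild-type injured 2 and the Gpr97-deficient injured array against 5.68 on wild-type injured 1. Without that last array its term was -2.71, with separate groups. Hnf4a, a transcription factor known to drive proximal tubule carriers, had all injured arrays below all sham arrays with a term of -0.63 (limma adjusted p = 0.326), or -0.70 without that array. Pdzk1, a scaffold of apical carriers, did so too with -0.91, or -1.22 without it. Pdzk1ip1, which codes for the SGLT2 partner MAP17, overlapped between groups at -0.47, and was separate at -0.79 without it. In all, 2 of 7 such partners and regulators lay below and 0 above, or 5 and 0 without wild-type injured array 1. Of all genes tested, 12.5% lay below and 10.1% above, or 20.3% and 15.1% without that array.

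**Figure D2:**
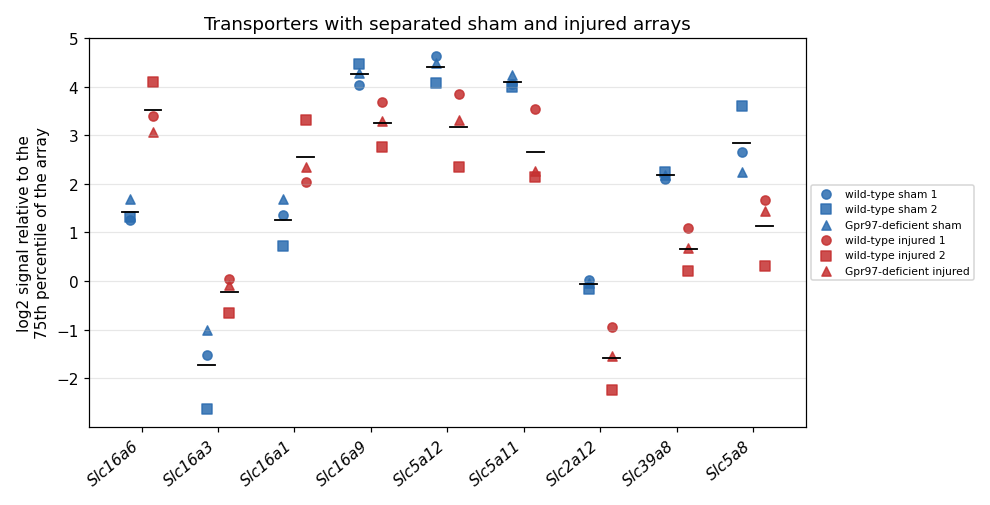
Level on each of the 6 arrays (log2 signal relative to the array's 75th percentile, vertical axis) of the 9 transporters whose sham (blue) and injured (red) arrays do not overlap and whose surgery term is at least 1 log2 unit in size; black bars are means of 3 arrays, and triangles are the Gpr97-deficient arrays. Slc16a6, Slc16a3 and Slc16a1 are higher after injury and the other 6 are lower, with wild-type injured 1 (red circles) nearest to the sham arrays in each of those 6.

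The 3 injured arrays were ordered alike in many of these genes. Among the 11 transporters with all injured arrays below all sham arrays, wild-type injured 1 was the highest injured array in 10 and wild-type injured 2 the lowest in 9. Among the 7 above, wild-type injured 2 was highest in 4 and wild-type injured 1 lowest in 4. This order was not counted over all genes, so it is not shown to be particular to the transporters. The Gpr97-deficient injured array lay between the 2 wild-type injured arrays for each of the 9 genes drawn in the plot of separated levels except Slc16a6, where it was lowest.

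Markers of several cell types differed on the same arrays. Beside the counts below, 10.1% of all genes tested had all injured arrays above all sham arrays and 12.5% had them below. Without wild-type injured array 1 these shares were 15.1% and 20.3%. A summed level is set mostly by the list's brightest probes. Of 12 proximal tubule markers, 8 had all injured arrays below all sham arrays (10 without wild-type injured array 1), and the log2 of the list's summed level ran from 9.35 to 9.83 on the sham arrays and from 8.30 to 8.91 on the injured arrays. Wild-type injured 1 had the highest of the injured sums and wild-type injured 2 the lowest, the order most of the lower carriers also showed. All 12 markers were above background on some array. In whole kidney, fewer proximal tubule cells and less carrier RNA per cell cannot be told apart, and the part of this shift in the lower carriers was not tested. All 6 of the tubular injury markers lay above, with summed levels from 6.59 to 7.51 on the sham arrays and from 8.94 to 9.43 on the injured arrays. Of 5 thick ascending limb markers 2 lay below (4 without wild-type injured array 1), with summed levels from 8.93 to 9.10 on the sham arrays and from 8.20 to 9.08 on the injured arrays, and of 8 distal tubule and collecting duct markers 1 did (3 without that array). Of 4 fibroblast markers 3 lay above, with summed levels from 3.61 to 4.34 on the sham arrays and from 4.16 to 4.67 on the injured arrays. Dcn, which weighs most in that sum on the sham arrays, overlapped with a surgery term of -0.57. For neutrophil markers, which 2 of 8 genes placed above, the sum was 1.83 and 1.31 on the wild-type sham arrays, 5.90 in the Gpr97-deficient sham kidney, 4.93 and 3.66 on the wild-type injured arrays and 4.81 in the Gpr97-deficient injured kidney. S100a9 alone read 5.49 on the Gpr97-deficient sham array. Of the 8 surgery terms 5 were positive and 3 negative. The red cell sum was 8.06 on the Gpr97-deficient sham array, 7.03 on wild-type injured 1 and 6.02 on Gpr97-deficient injured, and 2.64 to 3.98 on the other 3 arrays. Their part in the transporter values was not tested.

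Of the 13 tested Slc39 zinc importers, 1 had all injured arrays below all sham arrays, against 12.5% of all genes tested. In the other direction 3 lay above, against 10.1% of all genes. Slc39a8 (ZIP8), which brings zinc and manganese into cells, read 2.11, 2.25 and 2.19 on the sham arrays and 1.10, 0.20 and 0.69 on the injured arrays. The sham arrays lay within a narrow range and every injured array was well below it. Its surgery term was -1.52 (SE 0.27, limma adjusted p = 0.262) and -1.77 without wild-type injured array 1. It was the 1 transporter at least 2-fold lower in all 3 within-slide pairs, as were 0.76% of all genes, with -1.90 on slide 1, -1.15 on slide 2 and -1.51 in the Gpr97-deficient pair. The other 2 probes of the gene, both above background on all arrays, gave -1.36 and -0.70. Its main probe lies at chr3:135551169-135551228 in mm9.

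Slc39a14 (ZIP14), an importer of zinc and iron that inflammation is known to induce in liver, read -0.07, -0.04 and -0.50 on the sham arrays and 0.23, 1.02 and 0.54 on the injured arrays. The groups were separate, and the term was 0.80 (SE 0.26, limma adjusted p = 0.363) and 1.06 without wild-type injured array 1. Slc39a1 (ZIP1), a widely expressed plasma membrane importer, read 2.68, 3.02 and 2.97 on the sham arrays and 3.41, 3.79 and 3.80 on the injured arrays, with a term of 0.78 (SE 0.19, limma adjusted p = 0.308) and 0.89 without that array. Slc39a6 (ZIP6) was also above, with a term of 0.62 and of 0.86 without that array. Slc39a1 and Slc39a6 were singled out after their values were seen. Both overlapped with normexp background correction, Slc39a1 also when its probes were averaged, and Slc39a6 also when arrays were scaled by their medians. Slc39a4 and Slc39a5 (ZIP4 and ZIP5), the apical and basolateral importers of the gut, overlapped: Slc39a4 read -1.18, -3.05 and -1.17 on the sham arrays and -0.88, -1.51 and -1.23 on the injured arrays. Slc39a5 read -1.44, -1.86 and -1.22, then -0.34, -2.04 and -1.57. Each had a single array far from the rest, wild-type sham 2 for Slc39a4 and wild-type injured 1 for Slc39a5, and their terms of 0.60 and 0.19 turned to -0.03 and -0.37 without those arrays. The other 7 tested Slc39 genes had terms from -0.19 to 0.24 and overlapped with all 6 arrays.

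No zinc exporter separated the groups with all 6 arrays. Slc30a7 lay above without wild-type injured array 1, with a term of 0.41. With averaged probes Slc30a7 lay above and Slc30a9 below. Slc30a1 (ZnT1), the exporter of the plasma membrane, read 1.80, 1.87 and 1.52 on the sham arrays and 1.45, 1.97 and 1.54 on the injured arrays. The ranges nearly coincided, with a term of -0.08 (SE 0.20) that was 0.09 without wild-type injured array 1. The other tested exporters ran from -0.69 for Slc30a2 to 0.22 for Slc30a7, both with overlapping groups. Of the 4 metallothionein genes, whose proteins buffer zinc in the cytosol, Mt1 and Mt2 separated the groups. Mt1 read 4.99, 4.93 and 5.80 on the sham arrays and 6.27, 7.28 and 7.10 on the injured arrays, with a term of 1.65 (SE 0.32, limma adjusted p = 0.262) and 1.89 without wild-type injured array 1. Mt2 read 4.91, 4.81 and 5.80, then 6.87, 8.16 and 7.97, with a term of 2.50 (SE 0.38, limma adjusted p = 0.257) and 2.82 without that array. The Gpr97-deficient sham array was the highest sham array in both. Mt3, Mt4 and Mtf1 overlapped, so 2 of the 5 genes of zinc buffering lay above and 0 below, against 10.1% and 12.5% of all genes tested.

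**Figure D3:**
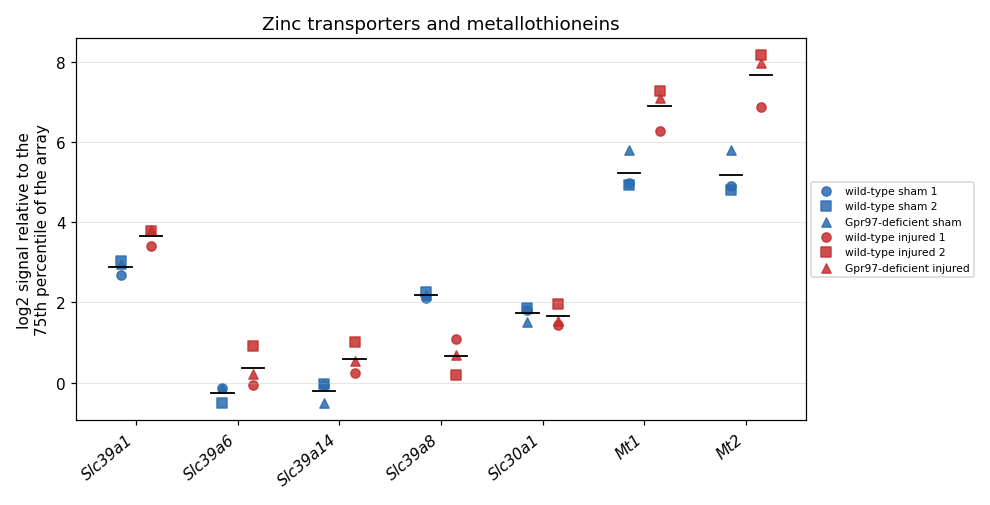
Level on each of the 6 arrays (log2 signal relative to the array's 75th percentile, vertical axis) of 5 zinc carriers and the metallothioneins Mt1 and Mt2; blue marks sham, red marks injured, triangles mark the Gpr97-deficient arrays and black bars are means of 3 arrays. Slc39a8 is lower and Mt1 and Mt2 are higher on all injured arrays, while the ranges of Slc30a1 overlap.

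The second question was whether the transporters differed with Gpr97. The genotype term, Gpr97-deficient minus wild type over both surgeries, compared 2 arrays with 4, and all its values rest on 1 array per surgery on slide 2. Its median over the 54 genes was -0.01, the same to 2 decimals as over all genes, and the terms ran from -0.66 (Slc16a4) to 0.96 (Slc2a6). It was positive in 25 transporters, against 47.9% of all genes, and negative in 29, against 52.1%. Both Gpr97-deficient arrays lay above all 4 wild-type arrays for 2 transporters, against 4.29% of all genes, and below them for 3, against 6.47%. None of the 5 had a term of at least 1 log2 unit, which 0.525% and 1.64% of all genes had with such separation. At an unadjusted limma p under 0.05, 1 transporter was higher, against 1.38% of all genes, and 0 were lower, against 1.85%.

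The 5 genes were Slc2a3, Slc2a6, Slc30a6, Slc30a9 and Slc39a11, named after their values were seen. Slc2a6 (GLUT6), a lysosomal carrier found in leukocytes, read -4.42, -4.32, -3.53 and -4.18 on wild-type sham 1, sham 2, injured 1 and injured 2, and -3.39 and -2.93 on the Gpr97-deficient sham and injured arrays. On slide 1 the wild-type readings lay near the lowest signal that counted as above background, -4.43 and -4.41. Its genotype term was 0.96 (SE 0.23, limma unadjusted p = 0.00942, adjusted p = 0.994), 1.10 without wild-type injured array 1, and -0.30 with normexp background correction. Slc2a3 (GLUT3), the neuronal and leukocyte carrier, had a term of 0.75 (limma adjusted p = 0.994; 0.91 without wild-type injured array 1), which also turned negative with normexp, to -0.33. Slc30a6, Slc30a9 and Slc39a11 had terms of -0.19, -0.25 and -0.38, or -0.26, -0.24 and -0.40 without that array, and that of Slc30a6 turned positive when its probes were averaged. The neutrophil sum was 5.90 and 4.81 on the Gpr97-deficient arrays against 1.31 to 4.93 on the wild-type arrays, and its part in the Slc2a6 and Slc2a3 values was not tested.

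How the injured minus sham differences compare between the genotypes was read from pairs that share no array. Across the 54 transporters the change in the Gpr97-deficient pair and the mean change of the wild-type pairs had Pearson's r = 0.81 and Spearman's rho = 0.81, with the same sign in 41 of 54 (75.9%). Across all 19612 genes r was 0.47 and 68.1% had the same sign. These are correlations across genes, which are not independent replicates, and all pairs share the array design. The transporters and all genes were not matched for signal. Of the transporters, 51 of 54 were above background on all 6 arrays, against 15831 of 19612 genes. The 2 wild-type pairs, on different slides, had r = 0.57 across the transporters and 0.32 across all genes, and 31 of the 54 transporters (57.4%) had 1 sign in all 3 pairs, against 44.9% of all genes. Without wild-type injured array 1, the slide 1 pair alone against the Gpr97-deficient pair gave r = 0.85 across the transporters and 0.46 across all genes.

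**Figure D4:**
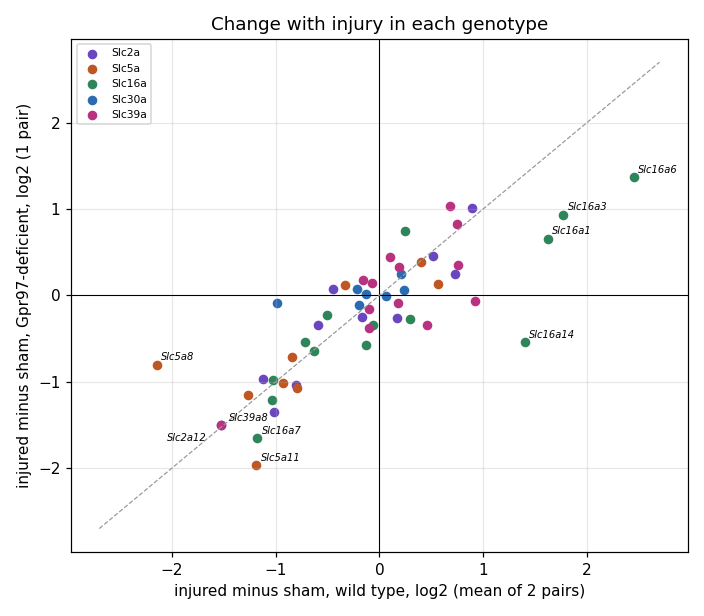
Change with injury (injured minus sham, log2) of each of the 54 transporters in the wild type (horizontal axis, mean of 2 pairs) and in the Gpr97-deficient mice (vertical axis, 1 pair), coloured by family; the dashed line marks equal change. Slc2a12 and Slc39a8 lie on top of each other near the line, and Slc16a14, with 1.40 in the wild type and -0.54 in the Gpr97-deficient pair, lies farthest from it.

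The interaction, the Gpr97-deficient change minus the wild-type change, was largest in Slc16a14, Slc5a8 and Slc16a6. Slc16a14 (MCT14), a member of the family with little known function, read -2.48 and -0.93 on wild-type sham 1 and 2, and -0.23 and -0.39 on wild-type injured 1 and 2. The Gpr97-deficient sham array read -0.69 and the Gpr97-deficient injured array -1.23, both inside the range of the wild-type arrays. A second, dimmer probe, also above background on all 6 arrays, read -1.75 and -1.60 on wild-type sham 1 and 2. It read -0.88 and -1.06 on wild-type injured 1 and 2, and -1.36 and -1.77 on the Gpr97-deficient sham and injured arrays. On the brightest probe the interaction was -1.94 (SE 1.02, limma adjusted p = 1). The interaction was -1.17 without wild-type sham array 1, the lowest array, and -1.86 without wild-type injured array 1. For Slc5a8 it was 1.34 (SE 1.07) and for Slc16a6 -1.08 (SE 0.58), both with limma adjusted p = 1. The Gpr97-deficient pair had the same sign as the wild type in both, with a smaller size. Both values moved with single arrays: without wild-type injured array 1 they were 2.03 and -1.44, and without wild-type injured array 2 they were 0.66 and -0.73. No transporter reached an unadjusted limma p under 0.05 for the interaction, where 0.612% of all genes did upward and 0.872% downward. The interaction was positive in 25 transporters, against 47.7% of all genes, and negative in 29, against 52.3%. With 1 Gpr97-deficient array per surgery, its spread is taken from the wild-type arrays.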

How the data were processed

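Total RNA of 6 kidney samples was labelled with Cy3 and hybridised to single-colour Agilent arrays, per the labels. The deposited scanner files give an intensity for each spot, the processed signal, read per the file headers with Feature Extraction 10.7.1.1 (slide 1) or 10.7.3.1 (slide 2), under the protocol GE1_107_Sep09; probes are placed on mm9. The scanner flags for background, saturation and outliers are other deposited columns. The authors' deposited value table was read as log2 values, since its columns (medians 6.07 to 6.09) followed the scanner signals with Spearman's rho of at least 0.999; its normalization and centring are unknown, and the submitters' processing notes name limma.

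Control spots and outlier-flagged spots were dropped (43379 of 45018 spots were non-control, 0 of them saturated), log2 signals were set relative to each array's 75th percentile, and repeated spots were averaged. RefSeq (GRCm38.p6) gave names to 27668 of 41174 probes by accession, 5589 by symbol and 471 by synonym, and 7446 kept the file's name; 1 probe that matches a transporter by synonym alone was left out. Each gene was represented by its brightest probe on average. Genes that 2 or more of the 6 arrays showed well above background entered limma 3.58.1 (R 4.3.3, with data.table at version 1.17.8), and p-values were adjusted over all 19612 by the Benjamini-Hochberg method. Injury within the wild type and the interaction came from group means (2 residual degrees of freedom), the surgery and genotype terms from an additive model (3). The fold given for Slc2a10 sets the brighter group's mean, dim arrays included, against a floor for the dimmer group. The floor is, on each array, the lowest signal above background, or the probe's own signal where that is higher, averaged over arrays. Fits were tested on simulated data. No 2 arrays held identical signals (0 of 15 pairs; r 0.938 to 0.98).

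Genes were named by rule for a known role in kidney, for separated arrays with a term of at least 1 log2 unit, or as the 3 largest interactions. Other transporters, such as Slc5a9, Slc5a6 and Slc2a13, and other genes of the lists are named outside these rules, with their values seen. Not each of them is marked so where it is named. The transporters and the gene lists were chosen with earlier results of these data known. In the list of gluconeogenesis, Pck1 was not analysed here. Values of some single genes that the rule takes are not reported here. Other background corrections, normalizations, filters, probe rules and fits, and leaving out each wild-type array, were tried as alternatives.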

Additional observations from a re-analysis of the deposited data

Results flagged for a closer look

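Slc16a14 differed in sign between the genotypes: the Gpr97-deficient pair read -0.54 (injured minus sham, log2), and the wild-type pairs 2.10 on slide 1 and 0.70 on slide 2. Slc2a2 did so too, with 0.0795 in the Gpr97-deficient pair and -0.51 and -0.38 in the wild-type pairs. The tests of the difference, limma's interaction, gave adjusted p = 1 for both genes, so neither is shown to differ between the genotypes. Of the 54 transporters, 5 had both wild-type pairs on one side of 0 and the Gpr97-deficient pair on the other, against 15.6% of all genes tested. With 1 Gpr97-deficient pair, a sign that rests on a change as small as that of Slc2a2 has no replicate.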

How the results depend on the processing

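Of the 54 tested transporters, 0 passed the adjusted threshold under any alternative run. The count of genes called for the surgery term was 1 with quantile normalization, 1 with the deposited values and 1 with slide as a block (Sprr2f each time), and 3 once the variance prior was robust and followed a trend (Col3a1, Mmp7 and Sprr2f); that last setting called 1 gene for the genotype term, Adgrg3. The median genotype term of the transporters was 0.065 with scaling by array medians, -0.0839 with no filter, -0.0884 with slide as a block and -0.0685 to 0.0455 when 1 wild-type array was left out. Among the genes named by the rule and Slc2a6, directions reversed for Slc2a9 (surgery term 0.20) and Slc2a6 (genotype term -0.30) with normexp, and when 1 wild-type array was left out for Slc5a3 (-0.44 to 0.16, positive without sham 1), Slc39a4 (-0.033 to 1.04, negative without sham 2), Slc39a5 (-0.37 to 0.60, negative without sham 2 or injured 1) and Slc30a1 (-0.22 to 0.085, positive without injured 1); the cause was not tested. Transporters with separated arrays numbered 8 to 11 above and 11 to 18 below when 1 wild-type array was left out, with 11 and 18 without wild-type injured 1; these counts were chosen after seeing the data, and fewer arrays separate more easily. Normexp moved the median surgery term of all genes from -0.04 to 0.20. Among the values of these named genes, 504 of 511 kept direction and side of the threshold. Part of this was fixed in advance. The variance prior, the filters on dim probes and, for the surgery term, slide as a block could not move a named gene's term. The side of the threshold was the same throughout, since no transporter passed it in any run. Over all 54 transporters, the sign turned under at least 1 alternative in 15 for the surgery term, with terms up to 0.595 in size, and in 36 for the genotype term. Of the counts and medians, 116 of 128 stayed within their limits, and the variance prior could not move any median. No paired analysis was possible because the labels give no replicate numbers that groups share; slide stood in as the block. With 3 arrays against 3, limma's adjusted p-values for the 9 separated transporters stayed above the threshold.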
